A study of Mus musculus with 20 samples.

Results

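The 56 genes described here drive the division of a cell. They were listed by name from 3 parts of the cell cycle: 35 genes of mitosis, 11 of DNA replication (the Mcm and Gins proteins, the ribonucleotide reductase subunits and thymidylate synthase), and 10 others of S phase and the step into it. Every gene of the list has a probe on the array, and together they hold 77 of its 39429 non-control probes, which carry 31093 gene names. For each of the 16 genes with several probes, the probe with the highest mean signal over all arrays stands for the gene. RNA came from whole blood of young adult male littermates, taken by cardiac puncture 24 h after whole-body X-rays of 7 Gy or a mock exposure of 0 Gy. Both genotypes, C57BL/6 (WT) and B6.129P2-Il10tm1Cgn/J (Il10-/-), came from matings of heterozygotes and shared a room under specific pathogen-free conditions. Mice without interleukin 10, a cytokine that restrains inflammation, serve as a model of inflammatory bowel disease, and the study asked whether inflammation alters blood expression markers of radiation exposure. Each of the 4 groups (WT 0 Gy, WT 7 Gy, Il10-/- 0 Gy and Il10-/- 7 Gy) has 5 arrays.

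Cells enter S phase when E2f transcription factors, freed from the retinoblastoma protein by cyclin-dependent kinases, switch on the genes of DNA synthesis. Cdc6 and Cdt1 load the Mcm helicase onto origins, the Gins complex joins it there, and thymidylate synthase, thymidine kinase and ribonucleotide reductase supply the nucleotides. Genes of G2 and mitosis follow, from cyclin B and its kinase Cdk1 to the kinetochore, the spindle and the machinery of cytokinesis, and the anaphase-promoting complex then marks the cyclins for destruction. After DNA damage p53 raises Cdkn1a (p21), which inhibits the kinases. Most leukocytes of normal blood have left the cycle, and blood also carries reticulocytes, young red cells that still hold RNA of their dividing precursors, and lymphocytes, which are sensitive to radiation.

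Promoters of mitotic genes are known for a cell-cycle homology region (CHR, TTTGAA) near CCAAT boxes, and promoters of replication genes for E2f sites, searched here as GGCGGGAA. RefSeq gave 53 promoters for 48 of the 56 genes, in build GRCm38.p6. The 150 bases before each start were searched on both strands, where ATTGG stands for the CCAAT box, TTCAAA for the CHR and TTCCCGCC for the E2f letters, and in 0 of the 53 windows did motifs overlap. The windows below belong to some of the genes whose levels fell with radiation and to Top2a, written 5′ to 3′ on the gene's strand and ending just before the start, with motif letters in capitals:
Ccnb2 (chr9:70421555-70421704, minus strand): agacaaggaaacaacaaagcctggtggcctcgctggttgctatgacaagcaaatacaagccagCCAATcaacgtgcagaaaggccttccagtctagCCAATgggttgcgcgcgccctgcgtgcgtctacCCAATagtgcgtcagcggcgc
Ube2c (chr2:164769779-164769928, plus strand): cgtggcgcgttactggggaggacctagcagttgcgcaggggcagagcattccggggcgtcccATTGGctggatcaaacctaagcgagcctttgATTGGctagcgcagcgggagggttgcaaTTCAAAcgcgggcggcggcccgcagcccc
Top2a (chr11:99024190-99024339, minus strand): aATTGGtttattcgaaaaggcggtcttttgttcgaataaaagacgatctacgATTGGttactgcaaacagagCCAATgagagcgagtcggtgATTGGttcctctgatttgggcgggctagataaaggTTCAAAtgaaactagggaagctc
Nusap1 (chr2:119618148-119618297, plus strand): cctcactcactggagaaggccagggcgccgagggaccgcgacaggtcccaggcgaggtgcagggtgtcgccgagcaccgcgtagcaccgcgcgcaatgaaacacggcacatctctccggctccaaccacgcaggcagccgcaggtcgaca
Mcm2 (chr6:88898781-88898930, minus strand): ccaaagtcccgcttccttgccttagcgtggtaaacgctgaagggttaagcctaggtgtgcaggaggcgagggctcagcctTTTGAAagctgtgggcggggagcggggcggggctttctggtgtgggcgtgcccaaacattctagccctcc
E2f2, first start (chr4:136172124-136172273, plus strand): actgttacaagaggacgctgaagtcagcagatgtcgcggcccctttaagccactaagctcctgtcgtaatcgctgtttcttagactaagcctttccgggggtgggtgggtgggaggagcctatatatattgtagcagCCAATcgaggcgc
E2f2, second start (chr4:136180632-136180781, plus strand): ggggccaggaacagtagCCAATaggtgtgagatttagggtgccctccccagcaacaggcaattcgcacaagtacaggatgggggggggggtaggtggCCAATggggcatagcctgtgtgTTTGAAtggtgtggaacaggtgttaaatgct
Uhrf1, first start (chr17:56303187-56303336, plus strand): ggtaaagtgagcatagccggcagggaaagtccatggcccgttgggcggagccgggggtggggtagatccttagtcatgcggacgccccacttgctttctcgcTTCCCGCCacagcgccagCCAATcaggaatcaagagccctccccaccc
Uhrf1, second start (chr17:56304163-56304312, plus strand): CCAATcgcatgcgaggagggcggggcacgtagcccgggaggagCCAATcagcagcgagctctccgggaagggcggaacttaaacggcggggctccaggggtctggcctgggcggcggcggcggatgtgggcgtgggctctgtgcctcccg

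A CCAAT box stood in 26 of 33 windows of mitosis genes (78.8%), in 7 of 9 of replication genes (77.8%) and in 5 of 11 of the other S phase genes (45.5%), against 24.5% of all 32851 promoters of that length. At least 2 boxes stood in 48.5% of the mitosis windows and 55.6% of the replication windows, against 6.02% of all promoters. Ccnb2 holds 3 boxes and Top2a 4. The CHR stood in 30.3% of the mitosis windows, among them Ube2c and Top2a, and in 11.1% of the replication windows (Mcm2 alone), against 9.07% of all promoters. The E2f letters stood in 2 of the 53 windows (3.77%), one of them at the first start of Uhrf1, against 1.33% of all promoters. The second start of Uhrf1 holds 2 CCAAT boxes and neither of the other motifs. Nusap1, whose level fell most in WT, holds none of the 3 motifs in this window. Neither do Cdt1 and Birc5, which also fell and whose windows are not shown. These matches describe the letters only.

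Between 29.9% and 57.8% of the spots of an array were well above background by the scanner software, and 4 arrays had under 40%: replicates 4 and 5 of WT 0 Gy and replicates 3 and 4 of Il10-/- 7 Gy. Replicate 5 of WT 0 Gy was also the noisiest, with an SD of 0.452 between repeated spots against 0.0641 to 0.118 on the others. Replicates 1 and 2 of every group were nearly the same (robust SD of their log2 differences 0.14 to 0.229, against 0.248 to 1.09 for the other 36 pairs within groups), although still further apart than repeated spots would give (0.0941 to 0.108), so counts are also given with each such pair averaged and counted as 1 array. Nothing ties the arrays to separate litters or cages, and p-values measure the spread between these arrays. The probe named Il10 was well above background on all 10 arrays labelled Il10-/- (5.65 to 6.79) and on 0 of 10 labelled WT (1.09 to 3.67). The knockout label was thus not met by a lower signal, where the probe lies relative to the deleted part is not given in the sources used here, and genotypes are written as labelled. Liver transcripts also varied widely between arrays of 1 group. Every marker with a probe in the lists of B cells, T cells, mature neutrophils, erythroid cells and platelets was well above background on at least 1 array. In whole blood, fewer cells of a kind and less RNA per cell cannot be told apart.

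Levels are log2 intensities after scaling of the arrays, differences are on the same log2 scale, and levels of different probes are not compared. Of the 56 genes, 43 passed the filter on dim spots and 36 also varied enough to be tested (23 of 35 for mitosis, 8 of 11 for replication, 5 of 10 for the others). Calls needed a limma p under 0.001 and a false discovery rate (Benjamini-Hochberg) under 10%, over all 16428 features tested. At 7 Gy 7 of the 36 tested genes were called lower and 0 higher in mice labelled WT, while 4.46% of all features were called lower and 6.57% higher. Among mice labelled Il10-/-, 7 were again called lower and 0 higher, while 5.66% of all features were called lower and 5.59% higher. Ccnb2, Nusap1, Mcm2, Cdt1 and E2f2 were called in both, which makes 5 of the 7 in each genotype. Every called gene was lower on all 5 slides, where each slide held 1 array of every group. With the slide as a block in the fit, 8 genes were called lower in WT, beside 4.02% of all features, and 5 in Il10-/-, beside 4.30%. That fit called Nusap1, Ube2c and E2f2 in both genotypes. Cdt1 lost its call in both (adjusted p = 0.0186 in WT and 0.0229 in Il10-/-), as did Ccnb2 (0.0208) and Mcm2 (0.0147) in Il10-/-, each with an unadjusted p over the threshold, while Ube2c and Cdca3 gained one in WT and Plk1 in Il10-/-.

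**Figure D1:**
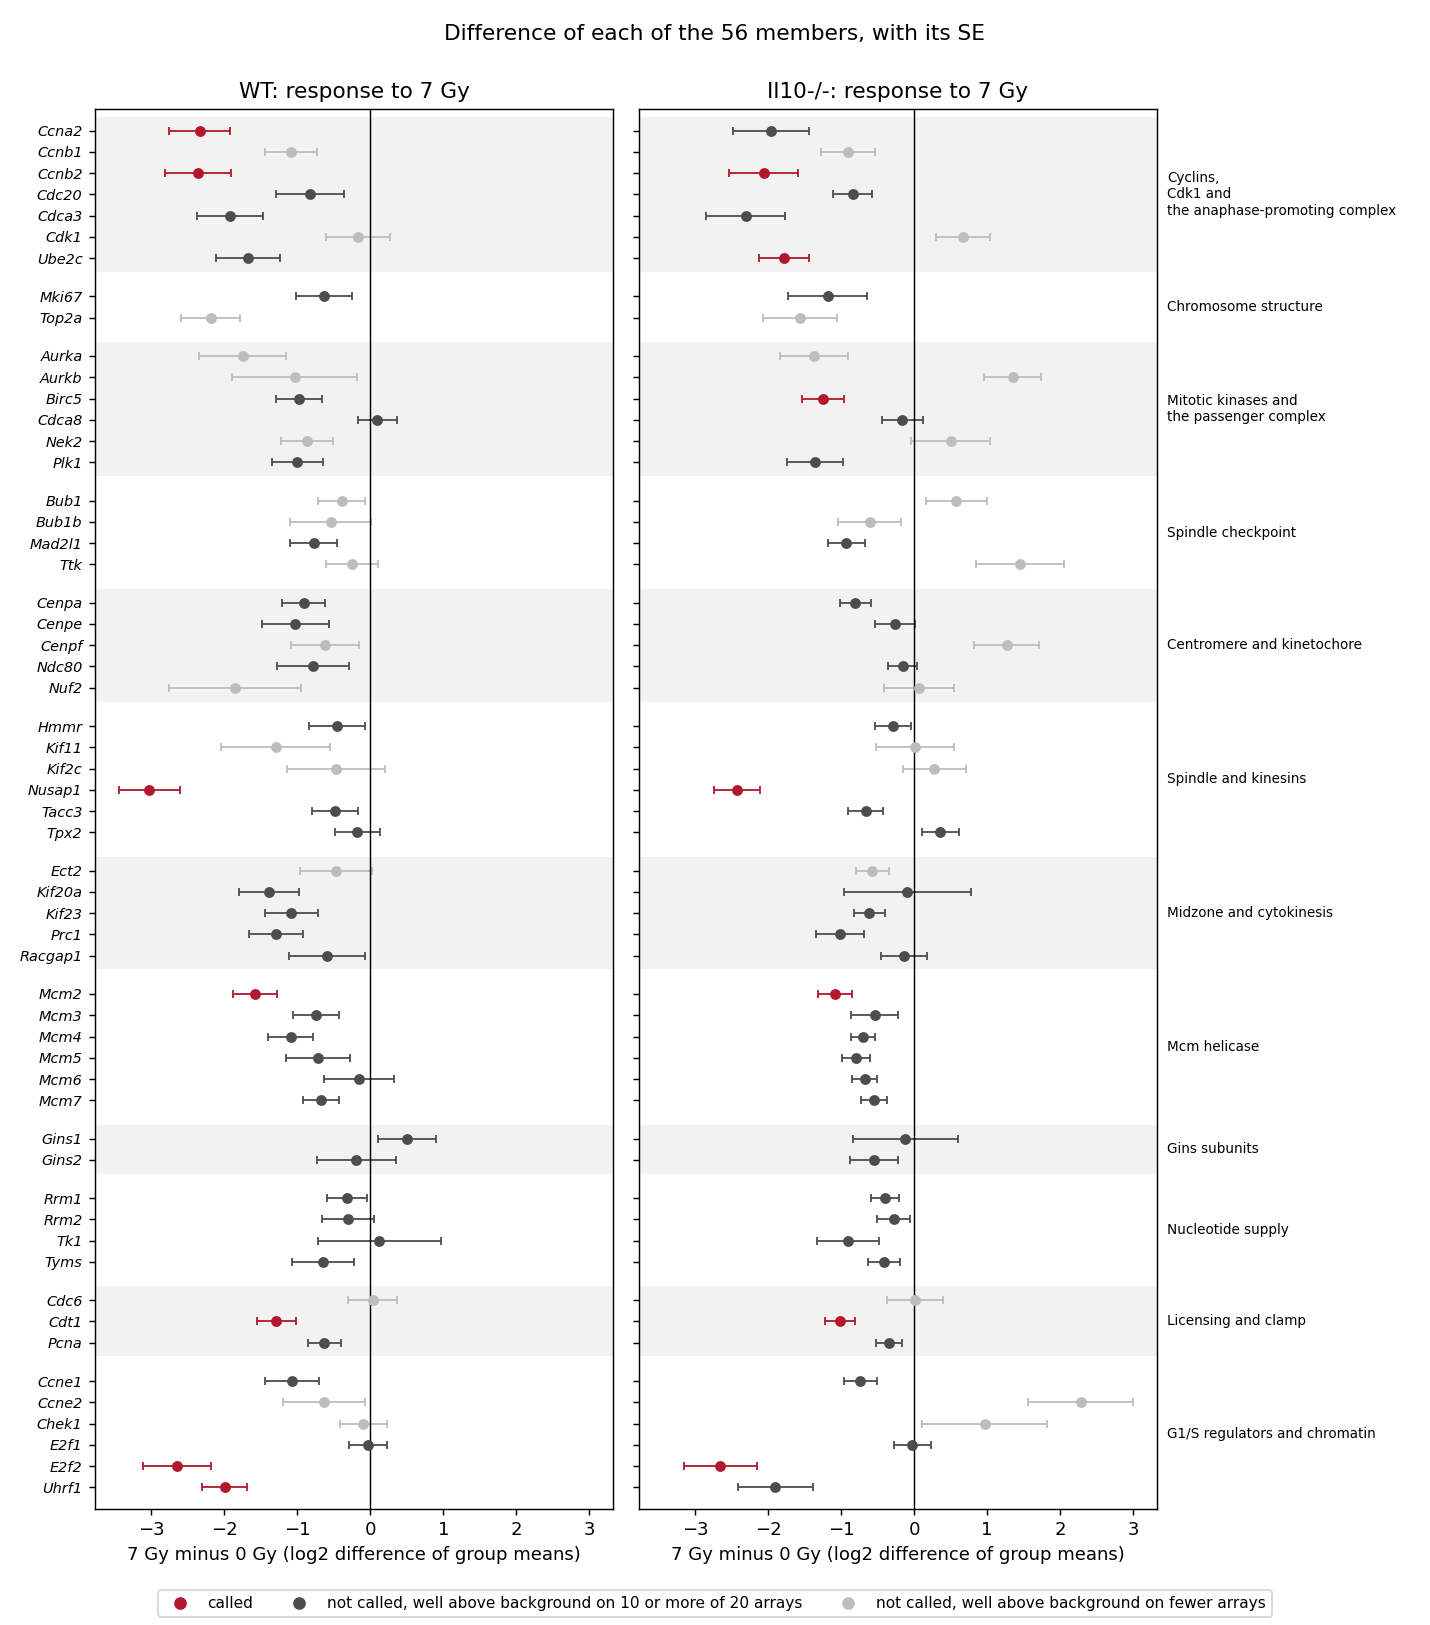
Difference between irradiated and unirradiated mice on the log2 scale (x axis) for each of the 56 genes, grouped by role, in mice labelled WT (left) and Il10-/- (right). Points are differences of group means over 5 arrays each and bars are the SE of the limma fit without filters; red marks the 7 called genes in each panel, all left of 0, and light grey marks the 17 genes well above background on fewer than 10 arrays.

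The rest of the genes lay mostly on the same side. The difference was below 0 for 52 of the 56 genes in mice labelled WT and for 43 in mice labelled Il10-/-, and of the 39 genes well above background on 10 or more arrays for 36 and 38. Under another scaling of the arrays the sign turned for 6 of the 56 in WT and 5 in Il10-/-, none of them called. The median over the 56 genes was -0.76 in mice labelled WT and -0.56 in mice labelled Il10-/-, beside -0.11 and 0.14 over all features tested. All 5 irradiated arrays were below all 5 unirradiated ones for 13 genes in WT and for 10 in Il10-/-, while this held for 4.92% and 6.04% of all probes. It held in both genotypes for Cenpa, Nusap1, Ube2c, Mcm2, Mcm7, Cdt1 and E2f2. With replicates 1 and 2 averaged, 5 of the 7 genes were still called in WT (Ccna2, Ccnb2, Nusap1, E2f2 and Uhrf1), beside 2.11% of all features called lower, and 1 of the 7 in Il10-/- (Nusap1), beside 2.42%. Without the 4 arrays with the fewest spots above background, 12 genes were called lower in WT, beside 6.01% of all features, and 1, again Nusap1, in Il10-/-, beside 3.55%. That left replicates 1 to 3 of WT 0 Gy and 1, 2 and 5 of Il10-/- 7 Gy. In each, replicates 1 and 2 were nearly the same, so the number of arrays overstates the replication there. Fits that each leave out 1 array gave 5 to 8 calls in WT, where 2.89% to 5.24% of all features were called lower. For Il10-/-, where the share ran from 3.54% to 5.58%, there were 12 without replicate 5 of the irradiated mice and 3 or 4 without replicates 1, 2 or 5 at 0 Gy or replicates 1 to 4 at 7 Gy. With the background corrected by normexp instead, 1 gene (Nusap1) was called in WT and 0 in Il10-/-, where 0.241% and 0.0525% of 9526 features were called lower.

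Among the spindle genes Nusap1, which bundles and anchors spindle microtubules, fell most of all 56 in WT. Its levels in mice labelled WT were 10.94, 11.04, 11.29, 12.63 and 11.31 at 0 Gy (replicates 1 to 5, the order used throughout) and 7.7, 7.76, 9.1, 9.15 and 8.38 at 7 Gy. In mice labelled Il10-/- they were 10.91, 11.03, 11.07, 10.14 and 11.13, and 8.08, 8.08, 8.77, 7.9 and 9.31 after radiation. The groups did not overlap in either genotype, and replicate 4 was the highest of the unirradiated WT arrays but the lowest of the unirradiated Il10-/- arrays. The differences were -3.03 ± 0.42 (SE), adjusted p = 0.000794 in WT, an 8.15-fold fall, and -2.43 ± 0.31 (SE), adjusted p = 0.000428 in Il10-/-, a 5.38-fold fall. The probe lies on chromosome 2 (mm9, chr2:119475072-119475131), as the array files give it. Hmmr and Tacc3, which organise spindle poles, differed by -0.45 and -0.48 in WT and by -0.29 and -0.66 in Il10-/-, and neither was called.

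Tpx2, which activates Aurora A on the spindle, has 2 probes that disagreed. The brighter one varied too little to be tested, with levels of 5.02, 4.51, 4.54, 5.56 and 4.69 in WT 0 Gy and 4.45, 4.06, 4.69, 5.21 and 5.02 in WT 7 Gy. It read 4.42, 3.96, 4.89, 4.44 and 3.95 in Il10-/- 0 Gy and 4.56, 4.78, 4.9, 5.08 and 4.13 in Il10-/- 7 Gy. These ranges overlapped in both genotypes, and its differences of -0.18 and 0.36 were below 0 in WT and above 0 in Il10-/-, the only rise there among the 39 genes well above background on 10 or more arrays. The dimmer probe, well above background on 11 arrays, differed by -1.43 in WT, where it was called, and by -1.44 in Il10-/-, where it was not. The motor genes Kif11 and Kif2c reached a clear signal on 0 and 2 arrays and were not tested.

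**Figure D2:**
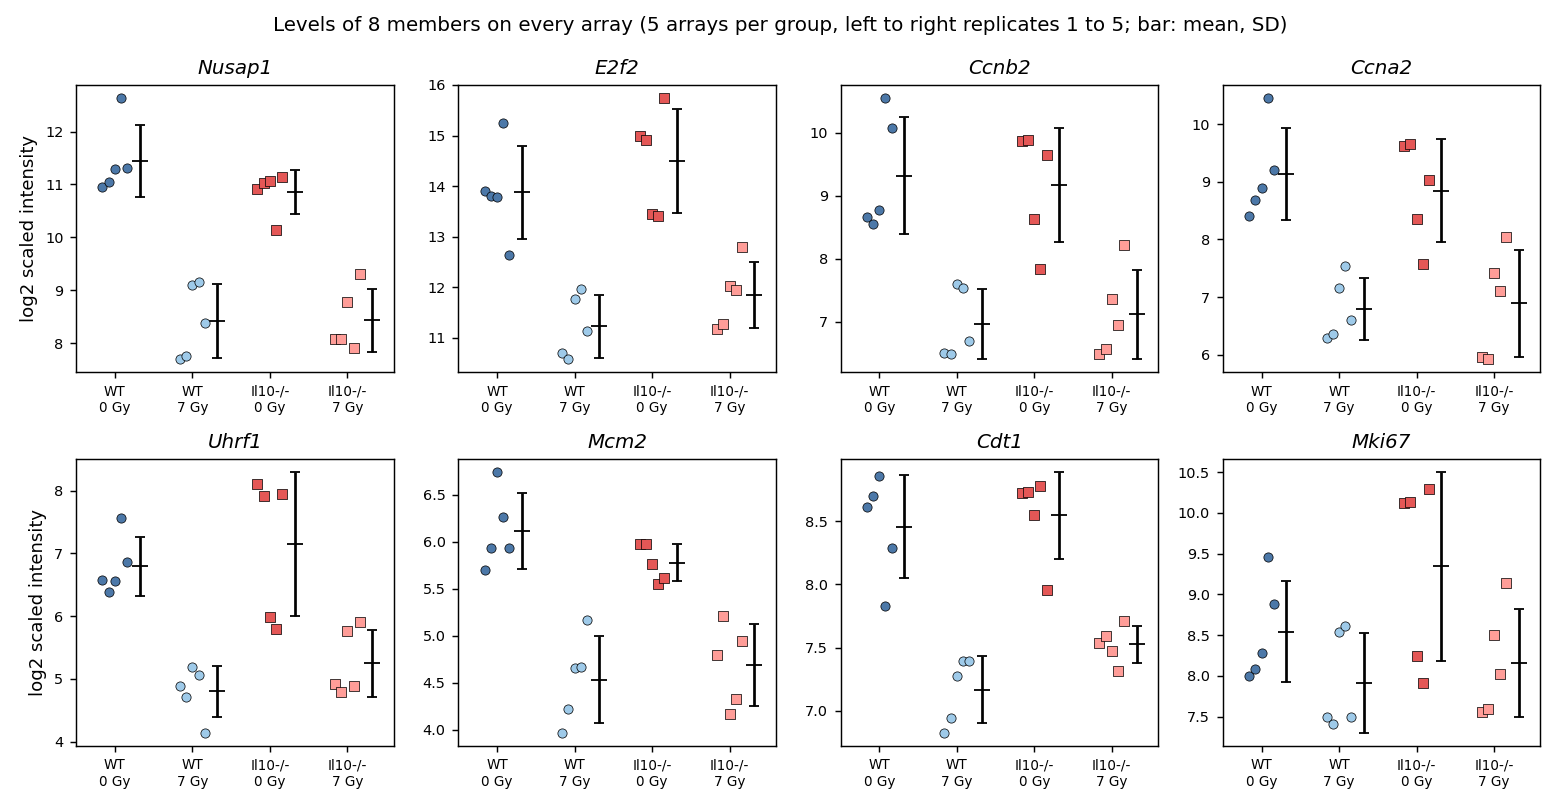
Levels of 8 genes on each of the 20 arrays (y axis, log2 scaled intensity, with its own scale in each panel; x axis, group), with the mean and SD of 5 arrays beside the points. For Nusap1 and E2f2 every irradiated array lies below every unirradiated array of its genotype, while for Mki67 the groups overlap, and in Il10-/- 0 Gy replicates 3 and 4 lie below the other 3 arrays for E2f2, Ccnb2, Ccna2, Uhrf1 and Mki67.

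Of the 7 genes of the cyclins, Cdk1 and the anaphase-promoting complex, Ccna2 and Ccnb2 were called in WT and Ccnb2 and Ube2c in Il10-/-. Cyclin B2 (Ccnb2), a partner of Cdk1, read 8.66, 8.55, 8.77, 10.56 and 10.08 in WT 0 Gy and 6.5, 6.49, 7.6, 7.53 and 6.69 in WT 7 Gy. After the mock exposure the Il10-/- arrays read 9.87, 9.89, 8.63, 7.84 and 9.65, and after 7 Gy 6.49, 6.56, 7.35, 6.95 and 8.23. In WT the groups did not overlap, while in Il10-/- replicate 5 at 7 Gy exceeded replicate 4 at 0 Gy. Ccnb2 fell 5.13-fold in WT (-2.36 ± 0.45 (SE), adjusted p = 0.00396) and 4.17-fold in Il10-/- (-2.06 ± 0.46 (SE), adjusted p = 0.0081), and the second call was lost in 8 of the 10 fits that leave out 1 array.

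Cyclin A2 (Ccna2), which serves both S phase and mitosis, gave levels of 8.4, 8.69, 8.9, 10.45 and 9.21 in WT 0 Gy and 6.3, 6.36, 7.16, 7.53 and 6.61 in WT 7 Gy. For Il10-/- they were 9.62, 9.66, 8.36, 7.57 and 9.03 at 0 Gy and 5.96, 5.93, 7.43, 7.11 and 8.03 at 7 Gy. Replicate 4 was the highest of WT 0 Gy by more than 1 log2 unit, and the Il10-/- groups overlapped. Ccna2 fell 5.06-fold in WT (-2.34 ± 0.41 (SE), adjusted p = 0.00274) and differed by -1.95 in Il10-/- (adjusted p = 0.0161), short of a call. The interaction term, the Il10-/- response minus the WT response, was 0.38 ± 0.68 (SE), adjusted p = 0.845, so the responses were not shown to differ.

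Ube2c, the ubiquitin-conjugating enzyme of the anaphase-promoting complex, read 12.72, 13.04, 13.1, 14.58 and 13.88 in WT 0 Gy and 11.16, 11.15, 12.25, 12.7 and 11.69 in WT 7 Gy. Its Il10-/- levels were 12.99, 13.02, 12.6, 12.19 and 13.5 at 0 Gy and 10.36, 10.6, 11.4, 11.09 and 11.93 at 7 Gy. The groups did not overlap in either genotype. Ube2c fell 3.44-fold in Il10-/- (-1.78 ± 0.34 (SE), adjusted p = 0.00357), and its second probe was called there too with a difference of -1.82. In WT it differed by -1.68 (adjusted p = 0.0158), where the unadjusted p missed the threshold. The interaction was -0.11 ± 0.56 (SE), adjusted p = 0.953.

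Cdca3, which marks the kinase Wee1 for destruction, was short of a call in both genotypes, where its unadjusted p lay just over the threshold. It read 5.81, 5.65, 5.97, 7.16 and 5.7 in WT 0 Gy and 3.95, 4.41, 4.99, 4.59 and 2.72 in WT 7 Gy. The Il10-/- arrays gave 7.62, 7.54, 5.65, 4.85 and 6.87 at 0 Gy and 3.93, 3.86, 3.95, 4.01 and 5.23 at 7 Gy. Its WT groups did not overlap, and in Il10-/- replicate 5 at 7 Gy lay above replicate 4 at 0 Gy. The differences were -1.93 ± 0.45 (SE), adjusted p = 0.00979 and -2.31 ± 0.53 (SE), adjusted p = 0.00909.

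Cdc20, the activator of the anaphase-promoting complex, read 6.37, 6.23, 6.14, 5.29 and 4.15 in WT 0 Gy and 4.73, 4.62, 5.58, 5.11 and 3.96 in WT 7 Gy. Il10-/- mice gave 6.31, 6.04, 5.92, 5.76 and 5.9 at 0 Gy and 5.05, 4.94, 4.74, 4.92 and 6.05 at 7 Gy. The irradiated arrays were lower on all 5 slides in WT and on 4 of 5 in Il10-/-, where replicate 5 was the exception. Neither difference was called (-0.83 ± 0.46 (SE), adjusted p = 0.211 in WT and -0.84 ± 0.26 (SE), adjusted p = 0.0363 in Il10-/-).

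Cyclin B1 (Ccnb1) had a clear signal on 8 arrays, all of them unirradiated. Its levels were 4.08, 3.8, 4.02, 2.81 and 2.82 in WT 0 Gy and 2.55, 2.41, 3.05, 2.06 and 2.03 in WT 7 Gy. Il10-/- mice gave 4.43, 4.37, 3.97, 3.42 and 3.7 and, after radiation, 2.12, 2.7, 3.44, 4.15 and 2.98. Since 0 of 5 irradiated arrays were well above background in either genotype, the signal there is only an upper limit. In WT this gives a fall of 1.06-fold or more if the unirradiated mean is taken as measured, with 3 of its 5 arrays well above background. The fitted differences were -1.09 ± 0.36 (SE), adjusted p = 0.0435 in WT and -0.9 ± 0.37 (SE), adjusted p = 0.0952 in Il10-/-. Cdk1, the kinase of mitotic entry, was well above background on 9 arrays and read 4.08, 3.45, 2.43, 2.71 and 3.93 in WT 0 Gy and 3.8, 3.53, 3.0, 3.41 and 2.0 in WT 7 Gy. Its levels in Il10-/- were 3.96, 3.15, 3.54, 3.24 and 1.96 at 0 Gy and 4.47, 3.66, 3.5, 4.09 and 3.48 at 7 Gy. The groups overlapped, neither difference was called (-0.17 in WT and 0.67 in Il10-/-), and the first changed sign without replicate 1 of WT 0 Gy (0.02) or replicate 5 of WT 7 Gy (0.12).

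Mki67, the proliferation marker that coats mitotic chromosomes, had a clear signal on all 20 arrays. It read 8.0, 8.09, 8.29, 9.45 and 8.89 in WT 0 Gy and 7.5, 7.42, 8.54, 8.61 and 7.49 in WT 7 Gy. The Il10-/- levels were 10.12, 10.14, 8.25, 7.91 and 10.29 at 0 Gy and 7.56, 7.6, 8.5, 8.03 and 9.14 at 7 Gy. In Il10-/- 0 Gy, replicates 1, 2 and 5 stood near 10 and replicates 3 and 4 near 8, within the irradiated range. Mki67 was not called in either genotype (-0.63 ± 0.39 (SE), adjusted p = 0.256 and -1.18 ± 0.53 (SE), adjusted p = 0.126). Top2a, the topoisomerase that disentangles chromosomes, was dimmer and failed the filter on dim spots. Its levels were 3.83, 4.03, 4.45, 5.1 and 4.31 in WT 0 Gy and 1.47, 1.39, 3.16, 2.03 and 2.72 in WT 7 Gy. In Il10-/- they were 5.13, 5.29, 3.59, 2.81 and 4.54 at 0 Gy and 2.09, 2.37, 3.81, 2.82 and 2.48 at 7 Gy. It was well above background on 4 of 5 arrays of WT 0 Gy, on 3 of 5 of Il10-/- 0 Gy and on 0 of the 10 irradiated arrays. The bounds are falls of 1.86-fold in WT and 1.14-fold in Il10-/-, computed as the bright group's mean over the dim group's mean of, on each array, the higher of the probe's own signal and the lowest signal among probes well above background. The bright mean is taken as measured and includes arrays not well above background, so these bounds are not strict. In the fit without filters, in which 2.12% of all 39429 probes were called lower in WT, Top2a was called there with an adjusted p of 0.0082.

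Of the mitotic kinases and the chromosomal passenger complex, Birc5 (survivin), a subunit of that complex, was called in Il10-/-. It read 7.61, 7.78, 7.87, 8.76 and 7.86 in WT 0 Gy and 6.93, 6.84, 7.35, 7.55 and 6.34 in WT 7 Gy. For Il10-/- its levels were 8.39, 8.29, 7.55, 7.98 and 8.26 at 0 Gy and 6.97, 6.76, 6.27, 6.57 and 7.66 at 7 Gy. The irradiated arrays were lower on all 5 slides in both genotypes, the groups did not overlap in WT, and in Il10-/- they overlapped through replicate 5 at 7 Gy. Birc5 fell 2.37-fold in Il10-/- (-1.25 ± 0.28 (SE), adjusted p = 0.00863), a call lost in 8 of 10 fits that leave out 1 array, and differed by -0.98 in WT (adjusted p = 0.0461). Its interaction was -0.27 ± 0.43 (SE), adjusted p = 0.824. The other probes of Birc5, well above background on 13 and 17 arrays, differed by -0.67 and -0.92 in Il10-/-, and neither was called. Cdca8 (borealin), another subunit, read 6.36, 6.22, 6.49, 6.06 and 5.44 in WT 0 Gy and 5.97, 5.97, 6.5, 6.28 and 6.34 in WT 7 Gy. Its Il10-/- levels were 6.92, 7.03, 6.29, 5.56 and 6.63 at 0 Gy and 6.16, 6.37, 6.15, 6.33 and 6.63 at 7 Gy. Both pairs of groups overlapped, with differences of 0.1 ± 0.28 (SE), adjusted p = 0.82 and -0.16 ± 0.28 (SE), adjusted p = 0.719.

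Plk1, the polo-like kinase of mitotic entry and exit, differed by -1.0 ± 0.35 (SE), adjusted p = 0.0568 in WT and by -1.36 ± 0.37 (SE), adjusted p = 0.0206 in Il10-/- and was not called. Aurka, the Aurora kinase of the spindle poles, failed the dim filter and ranged from 2.25 to 4.83 in WT 0 Gy and from 1.02 to 3.54 in WT 7 Gy. In Il10-/- it was well above background on all 5 unirradiated arrays (3.74 to 4.54) and on 0 of 5 irradiated ones (1.09 to 4.05). Aurkb and Nek2 were well above background on 0 arrays. The signal of Aurkb in Il10-/- was higher at 7 Gy on all 5 arrays, but it was never well above background and gives no fold; 7.37% of all probes were higher there without overlap.

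The spindle checkpoint, which holds cells until every chromosome is attached, was seen mainly through Mad2l1, which inhibits Cdc20. Mad2l1 ranged from 4.04 to 5.6 in WT 0 Gy and from 4.17 to 4.66 in WT 7 Gy, and from 5.04 to 5.56 and 3.79 to 5.17 in Il10-/-. Its differences of -0.78 ± 0.32 (SE), adjusted p = 0.1 and -0.93 ± 0.26 (SE), adjusted p = 0.0215 were not called. Another probe of Mad2l1, well above background on 15 arrays, disagreed, with differences of -0.18 in WT and 0.48 in Il10-/-, and was not called either. Bub1 and Ttk were well above background on 0 arrays and Bub1b on 2. At the centromere, Cenpa, the histone H3 variant that marks it, was lower after radiation without overlap in both genotypes. Its levels ran from 6.07 to 6.6 in WT 0 Gy and from 4.64 to 6.06 in WT 7 Gy, and from 5.91 to 6.54 and 5.22 to 5.84 in Il10-/-. The differences of -0.92 (adjusted p = 0.0478) and -0.8 (adjusted p = 0.0181) missed the threshold of p. Cenpe, a kinetochore motor, differed by -1.03 in WT and -0.26 in Il10-/- and was not called. Ndc80, which binds microtubules, varied too little to be tested (-0.79 in WT and -0.16 in Il10-/-), and Cenpf and Nuf2 were well above background on 0 arrays.

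All 5 genes of the spindle midzone and cytokinesis had differences below 0 in both genotypes, and 0 were called. Prc1, which cross-links midzone microtubules, differed by -1.29 ± 0.37 (SE), adjusted p = 0.0259 in WT and -1.01 ± 0.32 (SE), adjusted p = 0.0396 in Il10-/-. Kif23 and Racgap1, the 2 subunits of centralspindlin, differed by -1.08 and -0.6 in WT and by -0.61 and -0.14 in Il10-/-. Ect2, the exchange factor that starts the furrow, differed by -0.47 and -0.57. Kif20a, a midzone kinesin, differed by -1.39 in WT (adjusted p = 0.0283) and by -0.09 in Il10-/-, where replicate 3 at 7 Gy read 8.18 and the other 4 arrays 2.61 to 3.99.

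All 6 Mcm genes, the subunits of the replicative helicase, had differences below 0 in both genotypes, and Mcm2 was called in both. Mcm2 read 5.7, 5.93, 6.74, 6.26 and 5.94 in WT 0 Gy and 3.97, 4.22, 4.65, 4.66 and 5.16 in WT 7 Gy. Its levels in Il10-/- were 5.97, 5.98, 5.76, 5.55 and 5.61 at 0 Gy and 4.79, 5.21, 4.17, 4.32 and 4.95 at 7 Gy. The groups did not overlap in either genotype. Mcm2 fell 2.99-fold in WT (-1.58 ± 0.31 (SE), adjusted p = 0.00464) and 2.12-fold in Il10-/- (-1.09 ± 0.24 (SE), adjusted p = 0.00756). Leaving out 1 array at a time lost the WT call in 3 of 10 fits and the Il10-/- call in 9 of 10, with differences of -1.74 to -1.42 and -1.22 to -0.96.

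Mcm5 read 6.84, 7.01, 6.99, 6.16 and 4.71 in WT 0 Gy and 5.19, 5.28, 5.91, 5.86 and 5.87 in WT 7 Gy. The Il10-/- arrays gave 6.81, 6.75, 6.78, 6.78 and 6.46 at 0 Gy and 5.77, 6.26, 5.94, 5.52 and 6.13 at 7 Gy. In Il10-/- every irradiated array was below every unirradiated one, while in WT replicate 5 at 0 Gy was the lowest of all 20 arrays and the groups overlapped. The differences were -0.72 ± 0.44 (SE), adjusted p = 0.256 in WT and -0.79 ± 0.20 (SE), adjusted p = 0.0146 in Il10-/-. Mcm6 read 9.45, 9.2, 9.5, 8.83 and 6.94 in WT 0 Gy and 8.11, 8.22, 8.9, 8.8 and 9.1 in WT 7 Gy. In Il10-/- its levels were 8.33, 8.32, 8.48, 8.31 and 8.33 at 0 Gy and 7.71, 7.84, 7.46, 7.45 and 7.95 at 7 Gy. Again replicate 5 of WT 0 Gy was the lowest array, and the Il10-/- groups did not overlap. The Mcm6 difference was -0.16 ± 0.48 (SE), adjusted p = 0.828 in WT, turning to 0.09 with replicates 1 and 2 averaged, and -0.67 ± 0.18 (SE), adjusted p = 0.0192 in Il10-/-.

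Mcm3 and Mcm4 differed by -0.75 and -1.09 in WT and by -0.54 and -0.7 in Il10-/-, without a call, and Mcm4 did not overlap between the Il10-/- groups. Mcm7 varied too little to be tested and yet did not overlap in either genotype, with levels from 7.28 to 8.05 in WT 0 Gy, 6.8 to 7.27 in WT 7 Gy, 7.43 to 7.94 in Il10-/- 0 Gy and 6.96 to 7.42 in Il10-/- 7 Gy. The array files place the probe of Mcm7 on chromosome 16, and those of Pcna and Rrm2 on chromosome 19. RefSeq starts these genes on chromosomes 5, 2 and 12, so what the probes of Mcm7, Pcna and Rrm2 measure is uncertain. Probes of Cenpa, Kif23, Ndc80 and Ttk are given as unmapped, so their positions could not be compared with RefSeq. Without the 4 weakest arrays, 2 of them in WT 0 Gy, Mcm3, Mcm4 and Mcm5 were called lower in WT and Mcm2 was not.

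The Gins subunits, which join the helicase at the origin, did not move together. Gins1 read 4.78, 4.39, 4.5, 3.15 and 3.8 in WT 0 Gy and 5.33, 5.23, 4.53, 4.06 and 3.99 in WT 7 Gy, higher on all 5 slides after radiation. Its Il10-/- readings were 4.39, 4.14, 4.48, 5.1 and 3.88 at 0 Gy and 4.31, 4.45, 7.04, 2.57 and 3.03 at 7 Gy, where replicate 3 stood apart. The groups overlapped in both genotypes, and the differences of 0.5 ± 0.40 (SE), adjusted p = 0.383 and -0.12 ± 0.69 (SE), adjusted p = 0.919 were not called. Gins2 differed by -0.19 in WT and -0.55 in Il10-/- and was not called either.

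None of the 4 genes of nucleotide supply was called. Thymidylate synthase (Tyms), which makes the thymine nucleotide, read 4.81, 4.53, 5.14, 5.86 and 4.72 in WT 0 Gy and 3.84, 4.23, 5.31, 5.09 and 3.34 in WT 7 Gy. Its Il10-/- levels were 4.26, 3.98, 4.7, 4.01 and 4.39 at 0 Gy and 4.16, 4.07, 3.91, 3.72 and 3.41 at 7 Gy. The groups overlapped in both genotypes, with differences of -0.65 ± 0.42 (SE), adjusted p = 0.283 and -0.41 ± 0.22 (SE), adjusted p = 0.205. Rrm2, the regulated subunit of ribonucleotide reductase, varied too little to be tested and read 7.53, 7.54, 8.01, 8.86 and 8.07 in WT 0 Gy and 7.35, 7.22, 8.26, 8.38 and 7.27 in WT 7 Gy. For Il10-/- arrays it read 7.89, 7.9, 7.38, 7.07 and 7.81 at 0 Gy and 7.55, 7.13, 7.2, 7.15 and 7.61 at 7 Gy. Its differences were -0.31 and -0.28, and those of its partner Rrm1 -0.32 and -0.4.

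Thymidine kinase 1 (Tk1), which salvages thymidine, differed widely among irradiated mice. It read 5.7, 5.51, 5.34, 5.11 and 5.21 in WT 0 Gy and 7.47, 7.46, 5.52, 4.7 and 2.33 in WT 7 Gy. The levels in Il10-/- were 5.81, 5.73, 5.98, 6.16 and 5.77 at 0 Gy and 5.94, 6.14, 3.87, 4.34 and 4.63 at 7 Gy. The near-identical replicates 1 and 2 of WT 7 Gy lay above all unirradiated arrays and replicates 4 and 5 below all, and with replicates 1 and 2 averaged the WT difference turned from 0.12 to -0.31. Neither difference was called (0.12 ± 0.82 (SE), adjusted p = 0.924 and -0.91 ± 0.41 (SE), adjusted p = 0.135).

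Cdt1, which loads the helicase onto origins, was called in both genotypes. It read 8.61, 8.7, 8.85, 7.83 and 8.28 in WT 0 Gy and 6.83, 6.94, 7.28, 7.39 and 7.4 in WT 7 Gy. Its levels in Il10-/- were 8.72, 8.73, 8.55, 8.78 and 7.95 at 0 Gy and 7.54, 7.59, 7.47, 7.32 and 7.71 at 7 Gy. No irradiated array reached an unirradiated one of its genotype. Cdt1 fell 2.44-fold in WT (-1.29 ± 0.28 (SE), adjusted p = 0.00721) and 2.03-fold in Il10-/- (-1.02 ± 0.21 (SE), adjusted p = 0.00572), each call lost in 8 of 10 fits that leave out 1 array, with differences of -1.44 to -1.19 and -1.17 to -0.96. Cdc6, its partner at origins, was well above background on 0 arrays, and its signal of 2.95, 2.26, 1.9, 2.84 and 2.29 in WT 0 Gy and 2.49, 1.84, 2.68, 2.13 and 3.27 in WT 7 Gy gives no fold. Il10-/- arrays gave 2.41, 3.09, 3.32, 1.78 and 3.25 and 2.28, 2.41, 3.85, 2.88 and 2.48. The sliding clamp Pcna varied too little to be tested, and its probe read 8.87, 8.95, 8.96, 8.52 and 9.12 in WT 0 Gy and 8.07, 8.12, 8.23, 8.27 and 8.57 in WT 7 Gy. It read 8.84, 8.83, 8.64, 8.88 and 8.58 in Il10-/- 0 Gy and 8.67, 8.54, 8.24, 8.11 and 8.52 in Il10-/- 7 Gy. The probe was lower after radiation on all 5 slides in both genotypes, with differences of -0.63 and -0.34. The groups overlapped by 1 pair of arrays in WT, and in Il10-/- replicate 1 at 7 Gy stood above replicates 3 and 5 at 0 Gy.

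E2f2, an E2f transcription factor of S phase entry that is also known from the maturation of red cells, had a similar fall in both genotypes. It read 13.89, 13.81, 13.79, 15.25 and 12.64 in WT 0 Gy and 10.7, 10.58, 11.76, 11.96 and 11.13 in WT 7 Gy. Its Il10-/- levels were 14.99, 14.92, 13.45, 13.4 and 15.74 at 0 Gy and 11.17, 11.28, 12.03, 11.95 and 12.79 at 7 Gy. The groups did not overlap in either genotype. E2f2 fell 6.28-fold in WT (-2.65 ± 0.46 (SE), adjusted p = 0.00255) and 6.3-fold in Il10-/- (-2.66 ± 0.48 (SE), adjusted p = 0.00292), and both calls held in 10 of 10 fits that leave out 1 array. The interaction was -0.01 ± 0.70 (SE), adjusted p = 0.998. E2f1, its relative, varied too little to be tested, with differences of -0.04 and -0.02 from a probe well above background on 19 arrays.

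Uhrf1, which copies DNA methylation onto new strands, read 6.57, 6.39, 6.57, 7.57 and 6.87 in WT 0 Gy and 4.89, 4.71, 5.19, 5.06 and 4.14 in WT 7 Gy. Il10-/- arrays read 8.11, 7.91, 5.99, 5.8 and 7.94 at 0 Gy and 4.91, 4.79, 5.75, 4.89 and 5.91 at 7 Gy. The WT groups did not overlap, and in Il10-/- replicate 4 at 0 Gy stood below replicate 5 at 7 Gy. Uhrf1 fell 3.99-fold in WT (-2.0 ± 0.32 (SE), adjusted p = 0.00161) and differed by -1.9 in Il10-/- (adjusted p = 0.0176), without a call there, and its interaction was 0.1 ± 0.61 (SE), adjusted p = 0.96.

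Cyclin E1 (Ccne1), the partner of Cdk2 at the start of S phase, read 6.77, 6.97, 7.22, 8.56 and 8.08 in WT 0 Gy and 6.27, 6.1, 6.62, 6.86 and 6.38 in WT 7 Gy. The Il10-/- levels were 6.86, 6.76, 6.19, 6.39 and 7.09 at 0 Gy and 6.09, 5.75, 5.73, 5.77 and 6.27 at 7 Gy. It was lower after radiation on all 5 slides in both genotypes, with overlapping groups and no call (-1.07 ± 0.37 (SE), adjusted p = 0.0547 and -0.74 ± 0.23 (SE), adjusted p = 0.0353). Cyclin E2 (Ccne2) was well above background on 1 array, of Il10-/- 7 Gy. It read 0.79, 1.22, 1.58, 2.42 and 4.08 in WT 0 Gy and 1.13, 1.01, 0.99, 1.73 and 2.03 in WT 7 Gy. In Il10-/- its signal was 0.62, 0.81, 1.07, 0.27 and 1.26 at 0 Gy and 1.23, 1.83, 5.18, 2.49 and 4.72 at 7 Gy. Its largest values stood at replicates 3 and 5 of Il10-/- 7 Gy, and with 1 of 5 arrays well above background the signal gives no fold. Chek1, the checkpoint kinase of stalled replication, was likewise well above background on 1 array of Il10-/- 7 Gy and read highest, 6.63, on replicate 3.

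The positions of the other called probes, as the array files give them in mm9, are chr9:70255671-70255730 for Ccnb2, chr3:36463978-36464037 for Ccna2, chr2:164598016-164598075 for Ube2c, chr11:117716978-117717037 for Birc5 and chr6:88833619-88833678 for Mcm2. Those of Cdt1, E2f2 and Uhrf1 are chr8:125096893-125096952, chr4:135750562-135750621 and chr17:56462770-56462829. No exon annotation of that build was used here.

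The extremes were spread unevenly over the arrays. Of the 39 genes with a clear signal, 11 were highest of all 20 arrays on replicate 4 of WT 0 Gy and 7 on replicate 3 of WT 0 Gy. Replicate 5 of WT 7 Gy held the lowest level for 8 genes and replicate 1 of WT 7 Gy for 7. Of the 17 dimmer genes, 7 were highest on replicate 3 of Il10-/- 7 Gy and 5 on replicate 5 of WT 0 Gy, both among the arrays with the fewest spots above background, and 7 were lowest on replicate 4 of Il10-/- 0 Gy, the array with the most (57.8%).

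**Figure D3:**
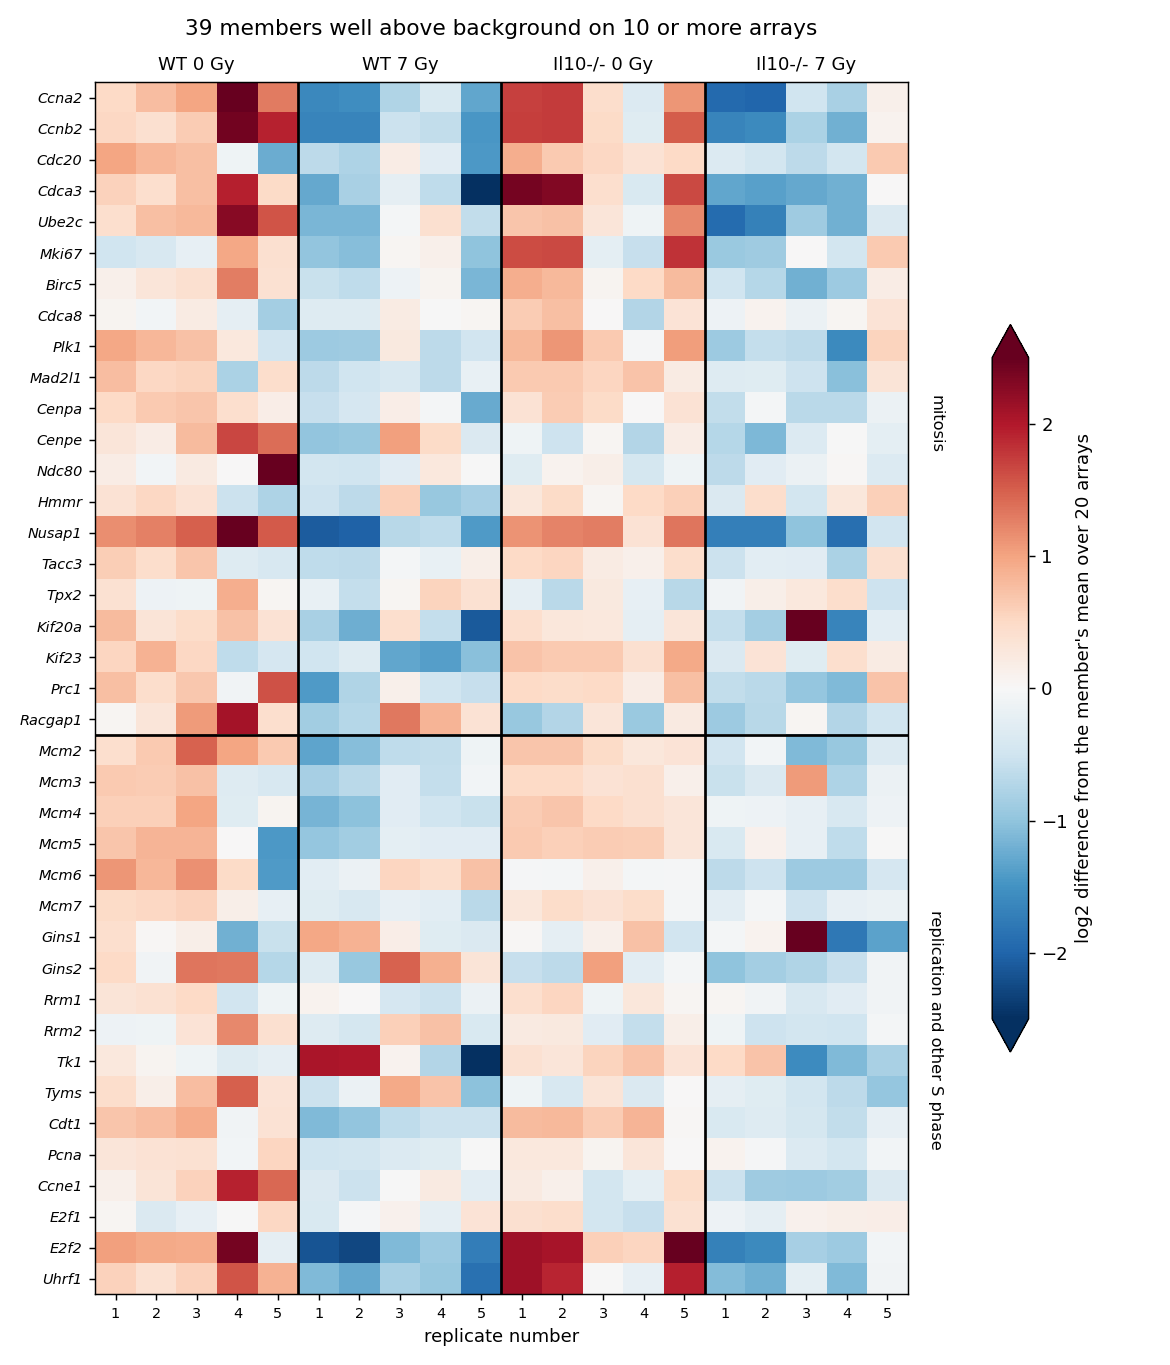
Heat map of the 39 genes well above background on 10 or more arrays (rows, mitosis above the line) on the 20 arrays (columns, by group and replicate), coloured by the log2 difference from the gene's mean over all arrays. Blue, below the mean, fills most of the irradiated columns, and within Il10-/- 0 Gy several mitosis genes are higher on replicates 1, 2 and 5 than on replicates 3 and 4.

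Replication and mitosis genes were compared by class, as a description. The median difference was -0.92 over the 35 mitosis genes and -0.65 over the 11 replication genes in WT. The Il10-/- medians were -0.61 and -0.55. For the 21 mitosis genes with a clear signal it was -0.98 and -0.84. Leaving out 1 array moved these medians to between -0.98 and -0.74 for mitosis and between -0.72 and -0.39 for replication in WT. In Il10-/- they moved to between -0.67 and -0.50 for mitosis and between -0.62 and -0.49 for replication. The other 10 S phase genes had medians of -0.63 in WT and -0.54 in Il10-/-. Of the tested genes of each class, 3 of 23 mitosis, 1 of 8 replication and 3 of 5 other S phase genes were called in WT, and 4, 1 and 2 in Il10-/-.

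Per array, each class was summarised by the median deviation of its genes from their means over all arrays. For mitosis it was 0.46, 0.41, 0.55, 0.41 and 0.56 in WT 0 Gy and -0.7, -0.77, -0.2, -0.18 and -0.36 in WT 7 Gy, without overlap. In Il10-/- it was 0.5, 0.53, 0.25, -0.19 and 0.46 at 0 Gy and -0.61, -0.6, 0.01, -0.46 and 0.12 at 7 Gy, where replicate 4 at 0 Gy fell among the irradiated arrays. For replication it was 0.48, 0.51, 0.77, 0.15 and -0.2 in WT 0 Gy and -0.32, -0.44, -0.21, -0.29 and -0.28 in WT 7 Gy. In Il10-/- it was 0.29, 0.46, 0.37, 0.29 and 0.04 at 0 Gy and -0.27, -0.13, -0.46, -0.63 and -0.15 at 7 Gy. The replication class did not overlap in either genotype, although in WT replicate 5 at 0 Gy lay just above replicate 3 at 7 Gy.

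Some markers of other cells also differed with dose or between arrays of 1 group. The mean level of 10 erythroid markers was 9.33, 9.34, 9.32, 10.64 and 9.999 in WT 0 Gy and 8.52, 8.37, 9.22, 9.51 and 8.8 in WT 7 Gy. In Il10-/- it was 9.95, 10.01, 9.31, 9.0 and 10.31 at 0 Gy and 8.56, 8.56, 9.07, 8.94 and 9.29 at 7 Gy. The 2 highest arrays of WT 0 Gy were replicates 4 and 5, and replicates 1, 2 and 5 of Il10-/- 0 Gy exceeded replicates 3 and 4, as they did for Mki67 and Ccnb2. Of these markers 3 were called lower in WT, among them Epb4.2 (-3.15) and Slc4a1 (-3.04), and 1 higher (Tal1, 1.63), while in Il10-/- 4 were called lower and 1 higher. The median difference over the 10 markers was -0.53 in WT and -0.21 in Il10-/-. Single markers ran from -3.48 to 1.63 in WT and from -3.81 to 1.68 in Il10-/-. Markers of neutrophil precursors had means of 8.67, 8.7, 7.22, 6.99 and 9.48 in Il10-/- 0 Gy, again highest on replicates 1, 2 and 5. In Il10-/- 7 Gy they were 6.21, 6.25, 7.85, 7.48 and 6.81, highest on replicates 3 and 4, with 1 of 8 called lower. In WT these means ran from 5.72 to 6.89 at 0 Gy and from 5.67 to 6.71 at 7 Gy, with 0 called lower and 1 higher.

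B-cell markers fell more than any class of these genes. Their mean over 10 genes went from between 8.49 and 9.29 in WT 0 Gy to between 5.65 and 6.32 in WT 7 Gy, and from between 7.87 and 8.78 to between 5.23 and 6.10 in Il10-/-, with 8 of 10 called lower in each genotype. T-cell markers, 9 in all, went from between 9.22 and 9.92 to between 7.92 and 9.32 in WT and from between 9.58 and 9.72 to between 8.74 and 9.39 in Il10-/-, with 1 called lower in each. Liver markers, 10 in all, had means of 4.84 to 5.89 in WT 0 Gy, 6.97 to 15.65 in WT 7 Gy, with 7 of 9 tested called higher, and 6.02 to 13.86 in Il10-/- 7 Gy. In Il10-/- 0 Gy they were 6.42, 6.27, 12.58, 13.64 and 6.15, high on the 2 arrays, replicates 3 and 4, where Mki67, Ccna2, Ccnb2, Uhrf1 and E2f2 were low. In WT 7 Gy and in Il10-/- 7 Gy the liver markers were highest on the near-identical replicates 1 and 2. Ccna2, Ccnb2 and E2f2 were lowest on those arrays. Platelet markers, 8 in all, went from between 12.11 and 12.61 to between 12.95 and 13.83 in WT, with 1 called higher, and from between 11.29 and 14.04 to between 14.01 and 14.76 in Il10-/-, with 0 called. Heart muscle markers, 10 in all, had means of 3.38 to 5.76 in WT 0 Gy and 4.04 to 9.999 in WT 7 Gy, with 0 called, and of 3.09 to 6.14 in Il10-/- 0 Gy and 5.12 to 9.76 in Il10-/- 7 Gy, with 3 of 8 tested called higher. The part of these cells and transcripts in the differences described here was not tested.

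**Figure D4:**
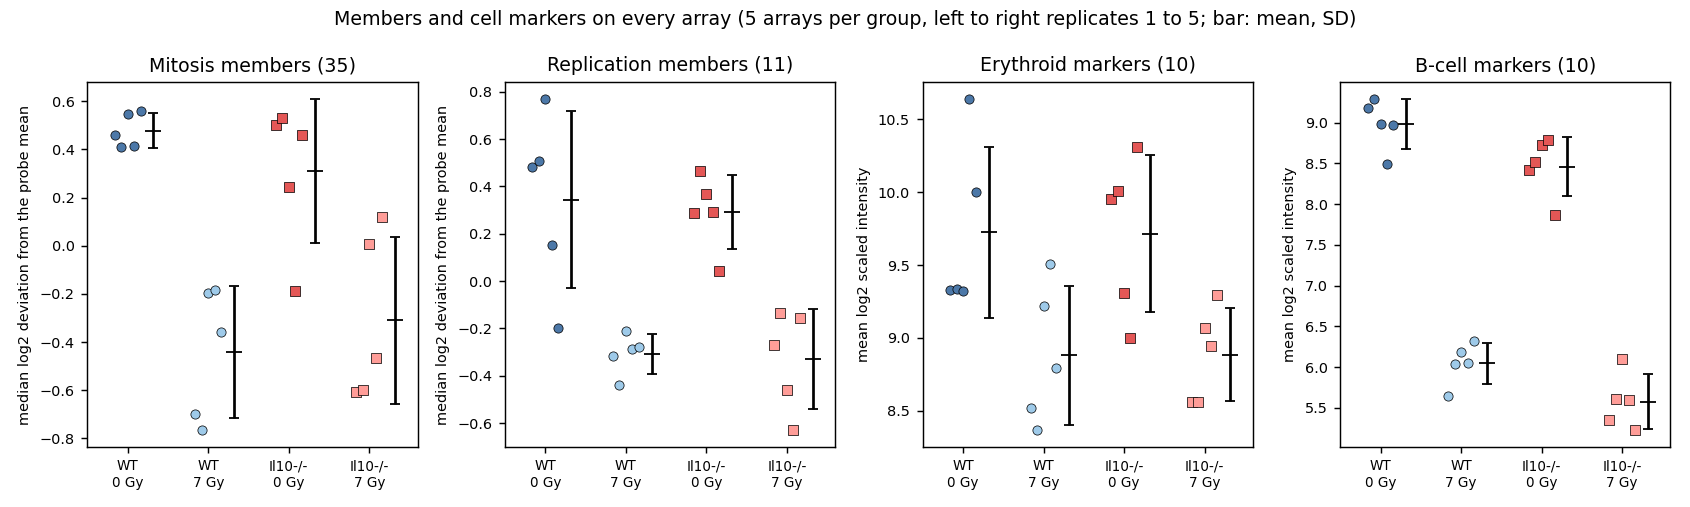
Per-array summary of the 35 mitosis and 11 replication genes (median log2 deviation from each probe's mean over 20 arrays) and mean log2 level of 10 erythroid and 10 B-cell markers, by group, with the mean and SD of 5 arrays beside the points. The class medians and both marker means are lower at 7 Gy, the B-cell markers by the widest margin and without overlap in either genotype.

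Between genotypes 0 of the 36 tested genes were called, at 0 Gy (where 0.469% of all features were), at 7 Gy or in the interaction (where limma called 0 features). At an unadjusted p under 0.05, 3183 of the 16428 features differed at 0 Gy, 2139 at 7 Gy and 1222 in the interaction. Among unirradiated mice the lowest p-values belonged to Cenpe (-1.09 ± 0.35 (SE), adjusted p = 0.187) and Racgap1 (-1.2 ± 0.43 (SE), adjusted p = 0.193), both lower in Il10-/- on all 5 slides, and Tyms was lower by 0.75. Tk1 was higher in Il10-/- 0 Gy without overlap (0.52 ± 0.24 (SE), adjusted p = 0.262), while 2.51% of all probes were. Ccne1 was lower in Il10-/- at both doses (-0.86 ± 0.37 (SE), adjusted p = 0.24 at 0 Gy and -0.53 ± 0.22 (SE), adjusted p = 0.355 at 7 Gy). Among irradiated mice Mcm6 was lower in Il10-/- without overlap (-0.94 ± 0.25 (SE), adjusted p = 0.234), while 0.619% of all probes were. Kif23 was higher there by 0.97 (adjusted p = 0.257). Without the 4 weakest arrays Mcm6 was called lower in Il10-/- at 0 Gy, beside 0.0183% of all features: the 3 WT arrays left read 9.45, 9.20 and 9.50 against 8.31 to 8.48. Of these WT arrays, replicates 1 and 2 were nearly the same.

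The median genotype difference was 0.00 for replication and -0.15 for mitosis at 0 Gy, and it turned to 0.30 and 0.15 with array medians subtracted. The largest interaction estimates belonged to genes well above background on at most 1 array, such as Ccne2, while among tested genes Cdk1 had the lowest p (0.84 ± 0.58 (SE), adjusted p = 0.651).

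Further genes of the cycle were read from 3 lists chosen by function. Of 48 further mitosis genes with a probe, 31 were tested, of which 3 fell and 1 rose in WT. Counts in these lists are calls, and stand beside 4.46% of all features called lower and 6.57% higher in WT. The shares in Il10-/- were 5.66% and 5.59%. Cdc25b, the phosphatase that activates Cdk1, fell most (-2.56, adjusted p = 0.00128), with Smc4 (-1.3) and Ncapd2 (-1.09) of the condensin complex. Espl1 (separase), which cuts cohesin, rose by 2.12. In Il10-/- Cdc25b (-2.29, adjusted p = 0.000809) and Smc4 (-0.89) fell, and Gtse1, a p53 target of G2, rose by 2.39. The list's median difference was -0.43 in WT and 0.21 in Il10-/-, beside -0.11 and 0.14 over all features tested, so as a set it was not lower in Il10-/-. Of 41 further replication genes 18 were tested. Pold1, the catalytic subunit of polymerase delta, fell in both genotypes (-1.57 and -1.18), Timeless (-1.21) and Rpa1 (-0.86) in Il10-/-, and Cdc45, which completes the helicase, rose by 1.95 in Il10-/-. That list's medians were -0.23 and -0.20.

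Of 30 genes of G1 control, 24 were tested, and 4 fell and 4 rose in each genotype. Cdkn1a, the p53 target that blocks the kinases, rose most: its level was 4.49 ± 0.77 (SD, n = 5) in WT 0 Gy and 9.80 ± 0.65 in WT 7 Gy, and 5.57 ± 0.28 and 10.16 ± 0.56 in Il10-/-. The groups did not overlap, and the rises were 5.31 (adjusted p = 4.58e-05) and 4.59 (adjusted p = 1.06e-05). Cdkn2b, Cdkn2a and cyclin D1 (Ccnd1) also rose, by 2.44, 1.65 and 2.77 in WT and by 2.28, 1.97 and 1.67 in Il10-/-. Fzr1 (Cdh1), which keeps the anaphase-promoting complex active in G1, fell by 2.88 in WT and by 2.36 in Il10-/-. Tfdp2, the partner of E2f proteins, fell by 2.12 and 1.72. Rb1 (-1.52) and Cdkn1b (-1.15) also fell in WT, and Cdk2 (-1.04) and Rbl1 (-1.01) in Il10-/-. The list's median difference was 0.02 in WT and 0.08 in Il10-/-. In the interaction 0 genes of the 3 lists were called.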

How the data were processed

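Expression was measured in 20 whole-blood RNA samples on single-colour Agilent mouse arrays, 5 arrays in each of 4 groups, after PAXgene collection and globin reduction. The authors extracted intensities with Agilent Feature Extraction (10.7 in the submitters' notes, 12.0.2.2 in the file headers) and normalized with BRB-ArrayTools. Their deposited table of log2 values holds 16909 features and equals the log2 intensity plus a constant per array to within 1.97e-06.

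Here log2 processed intensities were averaged over spots of a probe without non-uniform outliers and scaled by the median log2 distance to 1 reference array (Il10-/- 0 Gy replicate 3). Probes marked on 25% or more of the arrays were left out, as were those past 1.5-fold from their median on under 20% of the arrays, leaving 16428 of 39429. Each contrast was fitted with limma 3.58.1 (R 4.3.3) on its 10 arrays, the interaction on all 20, and calls needed p under 0.001 and a false discovery rate (Benjamini-Hochberg) under 10%. The fits were tested on simulated data. A probe below background in every array of a group has only a bound. The number of arrays limits the precision.

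Values of every array are given for a set of well known genes of the list and for the 3 largest rises and falls in each genotype among genes well above background on at least 5 arrays, and in addition for the other called genes. Of the further lists, the 3 largest called changes each way were named, and Cdkn1a, and Cdkn1b and Rbl1 were added after their values were seen. The members, lists and tests were chosen with earlier results of these data known. Alternatives covered scaling, background correction, filters, thresholds, probes, replicate block and left-out arrays; averaging replicates 1 and 2, leaving out both filters and leaving out the 4 weakest arrays were chosen after seeing the data. Figures were drawn with matplotlib 3.10.9 under Python 3.11.15. Values of 1 gene among the cell markers are not reported here.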

Additional observations from a re-analysis of the deposited data

Results flagged for a closer look

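In 8 of 88 sets of 5 arrays, each a named gene in a group, the highest or lowest array stood apart from the other 4 by more than Dixon's critical value, where chance gives about 1 in 20. Of Mcm6, replicate 5 of WT 0 Gy read 6.94 against 8.83 for the nearest array, and replicate 3 of Il10-/- 0 Gy read 8.48 against 8.33. Of Mcm5, replicate 5 of Il10-/- 0 Gy read 6.46 against 6.75. Nusap1 read 12.63 on replicate 4 of WT 0 Gy against 11.31, and 10.14 on replicate 4 of Il10-/- 0 Gy against 10.91. Cdca3 read 7.16 on replicate 4 of WT 0 Gy against 5.97, and 5.23 on replicate 5 of Il10-/- 7 Gy against 4.01. Cdc20 read 6.05 on replicate 5 of Il10-/- 7 Gy against 5.05.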

How the results depend on the processing

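The fall with radiation kept its direction in both class medians of both genotypes under every alternative run, from -0.77 to -0.21 for replication and -1.03 to -0.30 for mitosis in WT, and from -0.69 to -0.39 and -0.92 to -0.18 in Il10-/-. The low end came from normexp background correction, which gave medians of -0.21 and -0.30 in WT and -0.18 for mitosis in Il10-/-, and 1 and 0 called genes. Subtracting array medians moved all WT differences by 0.108 and all Il10-/- differences by -0.142, and turned the median genotype differences at 0 Gy to 0.30 (replication) and 0.15 (mitosis). Called genes numbered 15 in WT and 19 in Il10-/- at a false discovery rate below 5% alone, beside 9.55% and 12.2% of all features called lower, and 18 and 23 below 10% alone, beside 13.5% and 15.4%. They numbered 3 in Il10-/- with no filter on dim or outlier spots, beside 2.03%, and 1 there with replicates 1 and 2 averaged. Without the 4 weakest arrays they numbered 12 in WT, 1 in Il10-/- and 1 between genotypes at 0 Gy, with the near-identical replicates 1 and 2 among the arrays left. Leaving out 1 array gave 5 to 8 in WT and 3 to 12 in Il10-/-. The cause was not tested. Against 7 and 7 calls, the fit with replicate number (slide) as a block gave 8 in WT and 5 in Il10-/-, and the genes that lost or gained a call are named above. Correlations of the deviations of same-numbered arrays ran from 0.0696 to 0.329 between WT 0 Gy and WT 7 Gy (4 of 5 above 0.1), from -0.383 to 0.427 within Il10-/- (2 of 5), and up to 0.687 between the irradiated groups (4 of 5). No 2 groups had all 5 above 0.1, so the slide number was kept as a block in an alternative and not as a pairing.

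Small differences changed sign. In WT, Cdca8 turned to -0.021 with the 75th percentile subtracted and -0.15 without the weakest arrays, Mki67 to 0.27 and Mcm6 to 0.50 with normexp, Cdk1 to 0.29 with the deposited table, and Mcm6 to 0.092 and Tk1 to -0.31 with replicates 1 and 2 averaged, Tk1 also to -0.019 without the weakest arrays. Gins1 turned to 0.31 in Il10-/- with the deposited table. With 1 array left out, the WT differences ranged from -0.39 to 0.12 for Cdk1, -0.62 to 0.019 for Mcm6, -0.071 to 0.19 for Cdca8 and -0.37 to 0.92 for Tk1, and that of Gins1 in Il10-/- from -0.81 to 0.31. Signal over background limits the 17 genes that were well above it on fewer than 10 arrays.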
